A study of Mus musculus with 75 samples.

Results

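Nuclei of leptin receptor cells were compared with other nuclei of the hypothalamus after a 36 h fast, in 8 of the 75 samples of the series: 2 GFP-positive and 2 GFP-negative libraries of H3K27ac ChIP-seq, and as many of ATAC-seq. Animals had Cre expressed from the leptin receptor locus (LepRcre/+) and a Cre-dependent green tag of the inner nuclear membrane (SUN1-sfGFP/+), so a nucleus is GFP-positive where the driver was active in that cell at any time. All Fast animals, both sorts included, received saline at 12, 24 and 34 h of the fast. Hypothalami were pooled and nuclei sorted by GFP, with 300000 to 540000 nuclei per ChIP. The labels used here give neither the sex nor the number of the animals and do not say whether replicates came from separate pools, so the p-values cover only the variation among these libraries, part or all of which may be technical. The other treatments served for comparison: free feeding (Fed), an equal fast with 1 leptin injection of 5 mg/kg at 34 h (Lep2), and a fast in which leptin replaced saline at 12, 24 and 34 h (Lep24), each with 2 libraries per sort and assay and with GFP-negative libraries of its own. The titles of Fed (FedSSS) and Lep2 (FasSSL) hold the letter S of the Fast titles (FasSSS), so these groups may have had saline as well.

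Leptin is a hormone of fat cells whose level falls in fasting. Its long receptor, LepRb, signals through JAK2 and STAT3 in several groups of hypothalamic neurons, among them AgRP neurons, which drive feeding and are active in fasting, and POMC neurons, which restrain it. H3K27ac is the acetylated form of a lysine on histone H3 and marks active promoters and enhancers. ATAC-seq reads accessible DNA, where a transposase can insert. GFP-negative nuclei hold all other hypothalamic cells, glia and vessel cells as well as neurons. The signal of a region in a sorted pool is an average, so fewer cells with the mark and less mark per cell cannot be told apart. The files give regions by position in mouse build mm9 and pair them with no gene, and no mm9 annotation was used, so regions are named by position only and neither sort was checked against marker genes.

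The values were the authors' normalized signal per region, and read depth was unknown. Summed over regions, the 4 Fast libraries held 9249590 to 9601340 units of H3K27ac signal and 1267800 to 1378740 units of ATAC signal. Across tested H3K27ac regions, Pearson's r of log2 signal was 0.972 between the GFP-positive and 0.968 between the GFP-negative replicates, against 0.918 to 0.924 across sorts. In ATAC the GFP-positive replicates reached 0.821 and the GFP-negative replicates 0.913, and across sorts r ran from 0.813 to 0.879, so the GFP-positive replicates were no more alike than libraries of different sorts. GFP-positive ATAC replicate 2 was the most coarsely sampled ATAC library of the series, with 7.31% of its regions at 0 and lowest values of 3.7, 6.1, 8.4 and 10.7 above it. In H3K27ac, replicate 1 of Fed, Lep2 and Lep24 stood apart in both sorts, with 0.075 to 0.238% of signal in mitochondrial regions against 0.0102 to 0.0384% in the other 10 libraries, which include all 4 Fast libraries. H3K27ac values from those treatments are therefore given from both replicates and from replicate 2 alone, which leaves out these 6 libraries.

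The acetylation landscapes of the sorts differed widely in fasted mice. Of 97552 H3K27ac regions with a mean signal of at least 10 in the 4 Fast libraries, 25980 differed (26.6%), 12381 of them higher in GFP-positive nuclei (12.7%) and 13599 lower (13.9%), by limma on log2(signal + 1) with a Benjamini-Hochberg adjusted p under 0.05. The other 28816 of the 126368 regions lay below that signal and were not tested. Without any test, the 2 GFP-positive values lay wholly above or below the 2 GFP-negative values at 60062 regions (61.6%). With 2 values a side such separation is frequent even without a difference. Losses went deeper than gains. The median log2 fold change was 0.66 over the higher and −0.87 over the lower regions. A difference of at least 2-fold was seen at 2074 higher regions (16.8%) and at 5467 lower ones (40.2%), and one of at least 4-fold at 22 and 382.

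The number of regions called changed with how the spread was estimated. The 4 libraries leave 2 residual degrees of freedom, and the signal trend over regions entered each error with the weight of 52.2 prior degrees of freedom. Without that signal trend the count was 7405, with 2267 higher and 5138 lower. With the spread shared over all 16 H3K27ac libraries it was 294, with 18 higher and 276 lower, whereas the 10 libraries left after the 6 were set aside gave 25482. In that fit each group other than Fast has 1 library, so the residual spread still comes from the 4 Fast libraries alone. Quantile normalization turned the balance of directions, with 12550 higher and 12159 lower. Leaving out GFP-positive replicate 1 gave 15090 calls and leaving out replicate 2 gave 13576, of which 38.5% and 34.2% were higher. Each fit without 1 library takes its residual spread from the 2 libraries of 1 sort, with the lone library assumed to vary alike. In these 4 fits, 9914 regions were called every time, 3229 higher (median log2 0.74) and 6685 lower (median −1.11). Among these the excess of large losses was wider, at 22.3% against 58.2% of at least 2-fold. In the authors' deposited table, 7777 of 77368 regions with an FDR passed 0.05 for this comparison (10.1%), with 2426 higher and 5351 lower, and all 7777 were among the 25980 with the same sign.

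**Figure D1:**
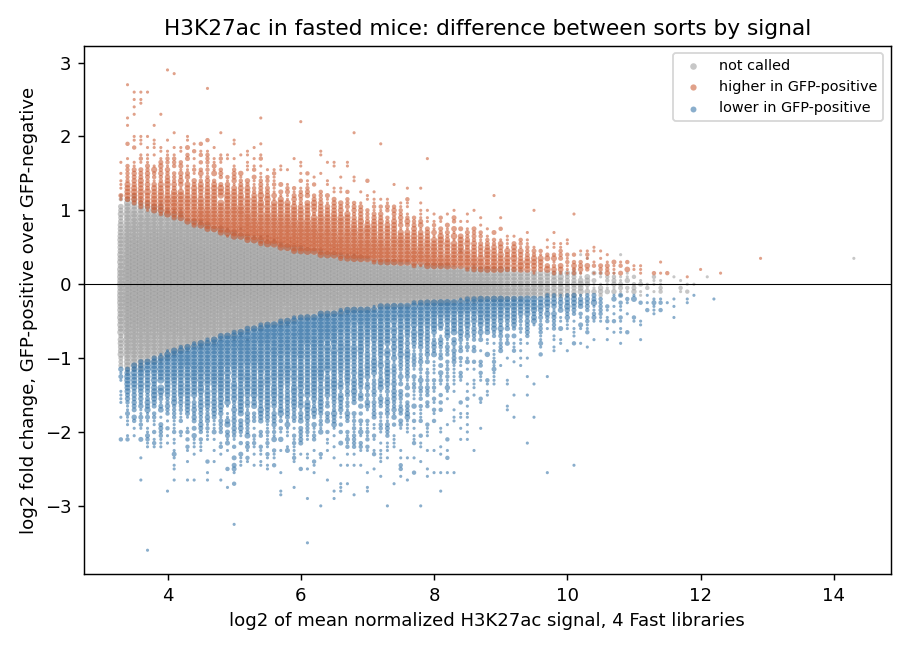
Log2 fold change of H3K27ac, GFP-positive over GFP-negative, against the log2 mean signal of the 4 Fast libraries, for the 97552 tested regions. Each point is a cell of a grid and grows with the number of regions in it. Called regions fan out from a band of uncalled ones that narrows with signal, and the lower side reaches further from 0 than the higher side at signals where most regions lie.

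Among the regions with a mean signal of at least 20, the largest gain was at chr18:27126496-27128897. H3K27ac signal there was 45.9 and 37.0 in the GFP-positive replicates and 9.8 and 3.3 in the GFP-negative replicates, a 6.19-fold difference (log2 2.63, SE 0.38, limma adjusted p = 1.64e-07). The replicates of each sort lay far from those of the other. The region chr3:48107508-48112078 held 69.6 and 68.7 against 12.2 and 15.6, which is 4.74-fold. At chr4:101390832-101396742 the values were 103.8 and 105.9 against 28.1 and 17.1, or 4.61-fold, the strongest GFP-positive signal of the 8 named gains. GFP-positive replicates were close to each other at each of these 3 regions, and the GFP-negative replicates differed more in proportion.

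The next gain, at chr3:119926695-119928780, rose 4.17-fold, from 12.2 and 8.2 in GFP-negative to 41.4 and 48.8 in GFP-positive replicates. At chr14:38883036-38885561 the GFP-positive values were 34.2 and 43.5 and the GFP-negative values 16.1 and 5.0, a 3.91-fold rise in which the GFP-negative replicates lay furthest apart in proportion among the 8 gains. At chr12:91658241-91660638 signal rose 3.84-fold, with 46.6 and 57.3 against 11.4 and 14.2. The last of the 8 both lay on the X chromosome. One at chrX:54438984-54440450 held 34.9 and 40.3 against 7.4 and 11.2 (3.80-fold), and the other at chrX:138151498-138155018 held 50.4 and 49.9 against 16.1 and 9.7 (3.78-fold). All 8 gains were short, from 1467 to 5911 bp, and none of them overlapped a tested ATAC region.

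The deepest loss was at chr7:17643815-17645357. Signal there was 10.9 and 10.6 in GFP-positive against 130.5 and 129.6 in GFP-negative replicates, an 11.2-fold difference (log2 −3.48, SE 0.23, limma adjusted p = 2.67e-18). Both sorts repeated almost exactly. A region of similar length at chr2:44967138-44968745 fell 8.12-fold, to 16.9 and 15.5 from 140.8 and 136.3. At chr1:174273925-174279633 the fall was also 8.12-fold, to 30.2 and 37.0 from 299.0 and 259.3. The longer region chr11:18912840-18921986, of 9147 bp, fell 7.87-fold, with 48.5 and 47.8 against 397.3 and 374.7. These 4 regions had strong acetylation in the rest of the hypothalamus and little in the LepRb sort.

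The other named losses followed the same form. Signal was 18.3 and 22.5 against 153.0 and 167.4 at chr14:26581144-26585315 (7.56-fold). It was 7.7 and 16.7 against 96.5 and 82.0 at chr1:112871204-112874638 (7.25-fold), where the GFP-positive replicates differed most in proportion. It was 21.2 and 33.7 against 205.9 and 192.5 at chr3:87828970-87837127 (7.21-fold). The last, chr16:91256205-91274628, was the longest and the strongest of the 16 named regions, at 18424 bp, and held 46.6 and 95.0 against 517.9 and 440.1 (7.08-fold). The sorts did not overlap at any of the 16, but these were chosen by fold on the same libraries. Over all tested regions the share without overlap was 61.6%. With the spread shared over 16 libraries, 8 of the 16 named regions kept an adjusted p under 0.05, and the range over the 16 was 0.0417 to 0.149. In the authors' deposited table all 16 had an FDR under 0.05, the highest being 0.0236 at chr14:38883036-38885561.

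**Figure D2:**
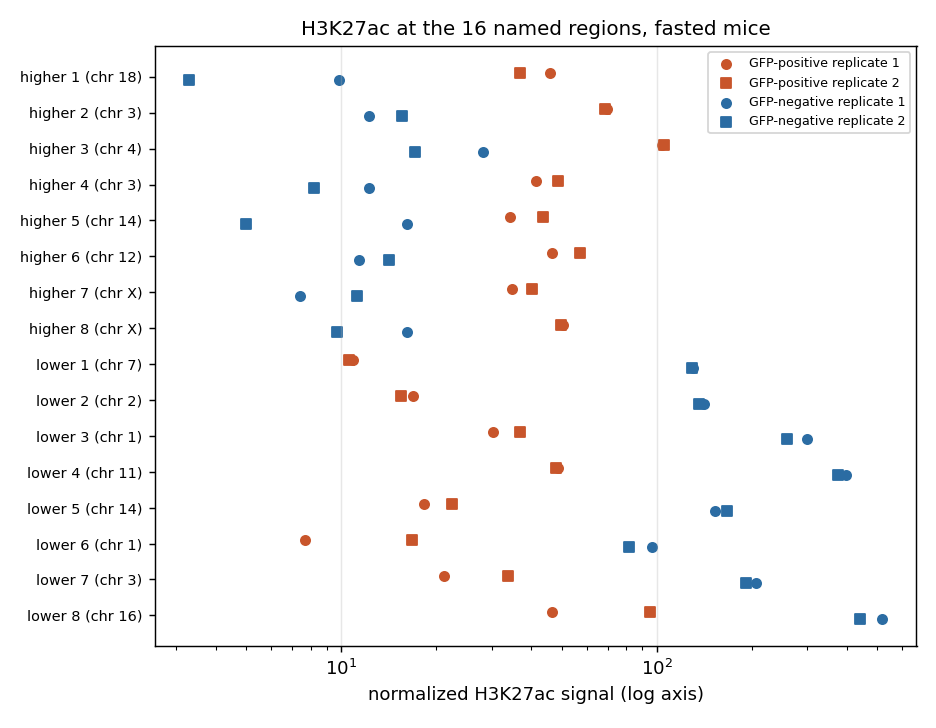
Normalized H3K27ac signal in each of the 4 Fast libraries at the 16 named regions, on a log axis, ordered from the largest gain to the smallest and then from the largest loss to the smallest, with the chromosome of each. Circles and squares are replicates 1 and 2. GFP-positive values of the gains lie between 34.2 and 105.9, and GFP-negative values of the losses lie between 82.0 and 517.9.

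Complete switches between sorts were rare. Signal under 5 in both GFP-positive replicates with 20 or more in both GFP-negative replicates was found at 3 H3K27ac regions, and the opposite at 0. Called regions were long and strong, with a median length of 4455 bp for the higher and 4323 bp for the lower ones against 2718 bp for all tested, and a median mean signal of 70.9 and 67.0 against 39.1. The share called rose from 11.2% of regions under 1 kb to 53.7% of those over 20 kb, and from 9.16% at a mean signal of 10 to 20 to 50.5% at 500 or more. The median size of a called difference shrank along the signal scale from 1.201 to 0.31 log2 units, so the shares are not a like measure across signal levels. Losses outnumbered gains in all 6 length classes, from 6.57% lower against 4.68% higher under 1 kb to 31.8% against 21.9% over 20 kb. By signal, gains were the more frequent at 50 to 100 (19.2% against 18.5%) and at 100 to 200 (20.9% against 19.5%), and losses in the other 4 classes, with 31.7% against 18.8% at 500 or more.

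H3K27ac regions over and away from tested ATAC regions leaned in opposite directions. The 17318 ATAC regions below the signal filter were not counted, so regions of the second class may still hold open chromatin. The classes were not matched for length or signal. Of 23335 H3K27ac regions over a tested ATAC region, 19.5% were higher and 16.5% lower. Of the 74217 with none, 10.6% were higher and 13.1% lower. Differences of at least 2-fold were more frequent away from ATAC regions, with 2.43% of regions higher and 6.63% lower there, against 1.161% and 2.33% over ATAC regions. The median size of a called difference was 0.48 log2 units over ATAC regions and 0.88 away from them.

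Some differences came in blocks. Many H3K27ac regions are pieces of longer domains that touch the next region end to end. Of 40676 touching pairs with both members tested, 4563 had both members called, and the direction was the same in 4467 of these (97.9%) and opposite in 96. Touching pieces of 1 domain are not independent of each other. The runs below were picked after their values were seen and carry no test. The run with most members on the higher side had 9 touching regions over 110382 bp at chr3:118124797-118235178, with summed signal of 2617.4 and 2605.5 in GFP-positive and 1659.7 and 1740.3 in GFP-negative replicates and log2 fold changes of 0.48 to 2.00. The next were 8 regions at chr3:31172190-31211862 and 7 at chr13:100707304-100740817, with median log2 fold changes of 0.76 and 0.74.

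On the lower side, 13 touching regions over 57512 bp at chr17:66046140-66103651 fell together. Their summed signal was 529.6 and 564.5 in GFP-positive against 1399.9 and 1465.8 in GFP-negative replicates, with log2 fold changes from −2.41 to −0.72. A run of 12 regions at chr2:166439735-166544564 summed to 1304.2 and 1344.1 against 2400.8 and 2314.5. The deepest of the 3 was a run of 10 regions over 102632 bp at chr8:87222444-87325075, where 910.1 and 948.5 stood against 3567.7 and 3297.9 and the median log2 fold change was −1.83. Most runs were single regions: 1255 of 10778 runs on the higher side and 1891 of 10735 on the lower side held at least 2.

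Gains and losses were also counted over larger neighbourhoods. The genome was divided in windows of 1000000 bp, of which 1965 held at least 10 tested regions, and in the median window 10.9% of regions were called higher and 11.1% lower. The majority of tested regions was called higher in 24 windows and lower in 26. The windows with the largest surplus of gains lay on chromosome 1 from 156000001 (40 higher and 9 lower of 92 tested), chromosome 5 from 27000001 (32 and 1 of 81) and chromosome 8 from 116000001 (32 and 1 of 74). Those of chromosome 4 from 152000001 (33 and 3 of 95) and chromosome 11 from 81000001 (29 and 0 of 79) came next. In the first window the median log2 difference of H3K27ac was 0.39 and that of 25 ATAC regions 0.27. In the windows on chromosomes 8 and 11 the ATAC median was −0.16. These ATAC medians cover all tested ATAC regions of a window, whether or not they lay on H3K27ac called higher.

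The windows with the largest surplus of losses lay on chromosome 18 from 69000001 (1 higher and 42 lower of 68), chromosome 11 from 115000001 (1 and 40 of 112), chromosome 9 from 45000001 (6 and 44 of 98) and from 41000001 (0 and 38 of 86), and chromosome 4 from 97000001 (0 and 37 of 48). The last was the most uniform. Its median H3K27ac log2 difference was −1.29 in Fast and −0.80, −0.84 and −0.81 in Fed, Lep2 and Lep24 (−1.01, −1.25 and −0.88 from replicate 2 alone), and 8 of its 9 ATAC regions had lower signal in GFP-positive nuclei, with a median of −0.52. The other 4 windows of losses had ATAC medians of −0.13 to 0.15.

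Chromatin accessibility gave far fewer calls, but its fit was unlike the main H3K27ac fit, which took its spread from the 4 Fast libraries. With the spread shared over 16 libraries, as here for ATAC, H3K27ac also gave far fewer calls, as stated above. Of 31316 ATAC regions tested, 13 differed at an adjusted p under 0.05 (0.0415%), 1 higher in GFP-positive nuclei (0.00319%) and 12 lower (0.0383%), by limma with the spread shared over all 16 ATAC libraries. At an unadjusted p under 0.05 there were 3276 of the 31316 regions, a larger share than 0.05, and the groups did not overlap at 12090 (38.6%). With 2 libraries a side, groups often separate even where the sorts do not differ, so 38.6% is no share of differing regions. The count was unstable. It was 324 without GFP-positive replicate 1, 15 without GFP-positive replicate 2, 8 without GFP-negative replicate 1 and 1 without GFP-negative replicate 2, and 1 region was called in every one of these fits. With only the 4 Fast libraries in the fit it was 0, with 2634 regions at an unadjusted p under 0.05, and the authors' deposited table lists an FDR under 0.05 at 0 of 48374 regions. In simulated data with 50 regions changed at each size, the ATAC fit recovered 12% of regions changed by 1 log2 unit and 72% of those changed by 2. Recovery under a difference as widespread as in H3K27ac was not simulated, so these shares do not give it.

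The only region called more open in LepRb nuclei was chr14:41520488-41521107. ATAC signal was 28.0 and 21.9 in GFP-positive and 7.8 and 3.5 in GFP-negative replicates, a 4.10-fold difference (log2 2.03, SE 0.39, limma adjusted p = 0.0378). It lay inside an H3K27ac region of 10499 bp (chr14:41514227-41524725) that held 155.8 and 167.6 against 46.8 and 57.7, log2 1.62. Both marks were higher in GFP-positive nuclei in Fed, Lep2 and Lep24 too, where the ATAC difference was 0.98, 0.89 and 1.35 and the H3K27ac difference 0.61, 0.89 and 0.73 in log2 units (0.98, 1.502 and 1.12 from replicate 2 alone).

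The ATAC region with the smallest adjusted p was chr6:85806164-85806613, listed at 0 in both GFP-positive replicates and at 17.0 and 23.6 in GFP-negative ones (log2 −4.40 on the log2(signal + 1) scale, SE 0.52, limma adjusted p = 8.22e-05). Because a deposited 0 has no known depth behind it, no fold is given. The surrounding H3K27ac region (chr6:85799688-85808423) held 44.0 and 45.6 against 191.5 and 179.5, log2 −2.03. In the other treatments the ATAC region was not at 0 in GFP-positive nuclei, with values of 4.0 to 14.5 in the 6 libraries, and it was lower than in GFP-negative nuclei in all 3.

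At chr16:24282193-24282764 ATAC signal was 0 and 3.7 against 28.5 and 31.2, inside an H3K27ac region with 24.7 and 34.8 against 101.1 and 84.4. At chr10:21372181-21373552 it was 15.5 and 15.2 against 49.5 and 48.8 (3.07-fold), and both H3K27ac regions it touched were lower as well, by log2 −1.81 and −1.91. This was one of the strongest ATAC regions called, and its replicates nearly coincided. At chr14:75883661-75884824 ATAC signal was 15.5 and 15.2 against 42.5 and 59.7 (3.14-fold), with a milder H3K27ac difference of log2 −0.46. At chr14:119221414-119222413 it was 5.4 and 6.1 against 22.3 and 35.0, and at chr1:184405083-184405908 it was 5.4 and 6.1 against 29.3 and 27.4, the latter inside an H3K27ac region of 34908 bp that fell by only 0.62 on the log2 scale. The accessible site and the acetylated domain around it thus differed to unequal degrees.

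On chromosome 10, the region chr10:19922589-19923051 held 5.4 and 0 against 15.4 and 21.7, in an H3K27ac region with 176.4 and 166.7 against 458.2 and 361.7. The remaining 5 called losses lay over no called H3K27ac region. For chr10:92545709-92546318, chr2:144617611-144618631 and chr11:81348148-81349004 the H3K27ac region did not pass the test, with log2 differences of −0.23, −0.62 and 0.32. The regions chr16:55019243-55019884 and chr19:31619394-31619928 lay over no tested H3K27ac region, and in each a GFP-positive replicate was listed at 0. In all, 7 of the 12 losses and the 1 gain sat on H3K27ac called in the same direction, where 19.1% and 19.9% of all tested ATAC regions lay on H3K27ac called lower and higher. All 13 kept their sign in the mean of each of Fed, Lep2 and Lep24. Of all tested ATAC regions, 61.4 to 64.3% kept theirs in a single treatment. Some of the 13 lay near 0 there, such as −0.01 at chr10:92545709-92546318 in Fed and −0.13 at chr11:81348148-81349004 in Lep2.

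**Figure D3:**
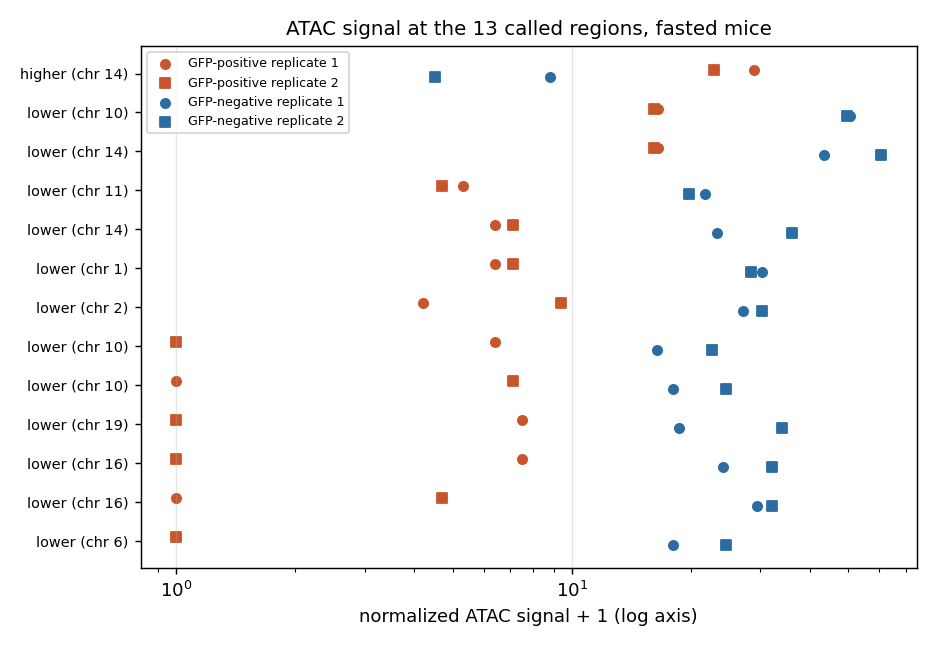
Normalized ATAC signal plus 1 in each of the 4 Fast libraries at the 13 called regions, on a log axis, from the one gain at the top to the deepest loss at the bottom, with the chromosome of each. Circles and squares are replicates 1 and 2. GFP-positive values of the 12 losses lie at 15.5 or below, 6 of the 12 regions have a GFP-positive replicate listed at 0, and GFP-negative values lie at 15.4 or above.

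Accessibility followed acetylation across the genome by small amounts. ATAC values took no part in choosing H3K27ac regions. Over the 6217 ATAC regions that overlapped H3K27ac called higher, the median ATAC log2 difference was 0.19 and 68.9% were above 0. Over the 5971 on H3K27ac called lower it was −0.09 with 59.5% below 0. It was 0.00 over 17726 regions on uncalled H3K27ac and 0.02 over all 31316, of which 52.3% were above 0. The difference between the medians on higher and lower H3K27ac was 0.28, and 0.36 when only H3K27ac calls kept in all 4 fits without 1 library were used, an alternative chosen after seeing the data. Regions are not replicates, so these medians carry no p.

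The gain side was clearer than the loss side in the typical region. Pairing each GFP-positive with each GFP-negative ATAC library gave medians of 0.15 to 0.27 on higher H3K27ac in the 4 pairs. On lower H3K27ac the medians were −0.17, −0.12 and −0.05 in 3 pairs but 0.01 for GFP-positive replicate 2 against GFP-negative replicate 1, so the sign there was not the same in every pair. In that last pair the median was 0.06 over all tested ATAC regions and 0.04 on uncalled H3K27ac. The ATAC groups did not overlap, with GFP-positive higher, at 2101 regions on higher H3K27ac (33.8%) and at 844 on lower H3K27ac (14.1%). They did not overlap with GFP-positive lower at 492 (7.91%) and 1531 (25.6%). Of all tested ATAC regions 6642 did not overlap with GFP-positive higher (21.2%) and 5448 with GFP-positive lower (17.4%), which is 38.6% together.

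Larger acetylation differences went with larger accessibility differences over the 7 classes with 64 pairs or more. Over 64 overlapping pairs with an H3K27ac log2 fold change of −2 or less the median ATAC difference was −0.96, and 6.25% were above 0. It was −0.36 over 572 pairs from −2 to −1, −0.12 over 1710 from −1 to −0.5 and −0.03 over 12838 from −0.5 to 0. On the positive side it was 0.07 over 12577 pairs from 0 to 0.5, 0.28 over 2553 from 0.5 to 1 and 0.51 over 278 from 1 to 2, where 84.2% were above 0. The single pair above 2 went the other way, with an ATAC difference of −2.08 (−0.26 and −3.90 in the replicates). Replicates 1 and 2 gave the same order of medians. Over all 30593 pairs Spearman's rho was 0.25, and 0.25 and 0.15 with each ATAC replicate alone, as a description of regions that share 8 libraries.

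**Figure D4:**
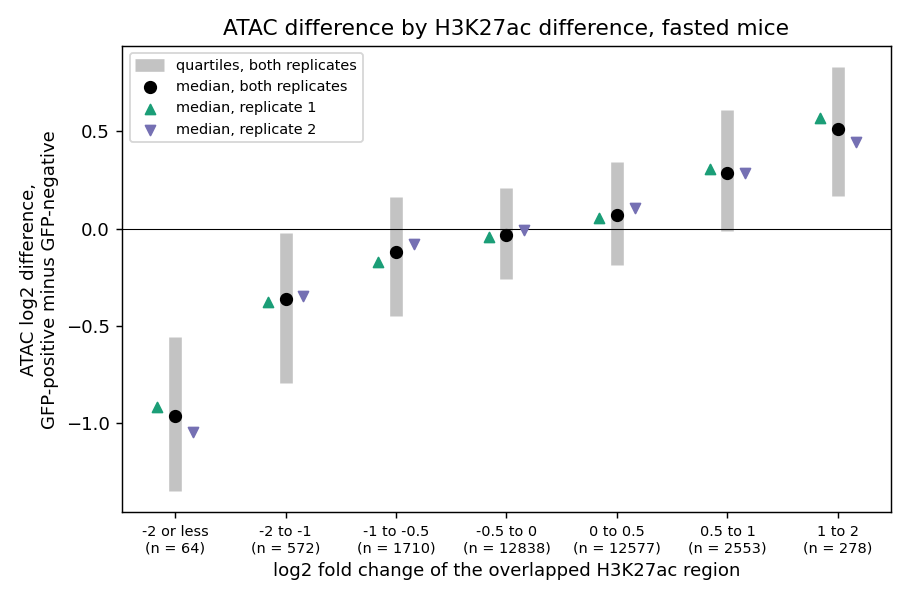
ATAC log2 difference, GFP-positive minus GFP-negative, at ATAC regions grouped by the log2 fold change of the H3K27ac region they overlap, in Fast. Black points are medians over both replicates, bars are quartiles, and triangles are medians of replicate 1 and replicate 2 alone. Medians climb from −0.96 to 0.51 across the 7 bins with 64 pairs or more, while the bars of neighbouring bins overlap.

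Places where both marks moved were listed by combined rank. The 6 named joint losses were the called ATAC regions on chromosomes 6, 16, 10, 10, 14 and 1 given above. For joint gains the 1 ATAC call on chromosome 14 was joined by 5 regions whose ATAC groups did not overlap. These 5 did not pass the test (limma adjusted p 0.156 to 0.301). They ranked best among 2102 ATAC regions on higher H3K27ac whose sorts did not overlap, with GFP-positive higher. That count includes the called region and 1 region that overlapped H3K27ac called in both directions. At chr12:105500807-105502030 ATAC signal was 29.1 and 30.7 against 10.8 and 9.8, and H3K27ac around it 148.1 and 170.4 against 36.1 and 70.0. At chr16:73404887-73405576 the ATAC values were 22.3 and 21.9 against 6.3 and 6.7. At chr2:10529102-10529702 they were 17.7 and 15.2 against 4.0 and 5.7, with H3K27ac of 57.3 and 65.6 against 22.2 and 25.4. The others were chr15:59514423-59514960, with ATAC signal of 15.5 and 15.2 against 1.7 and 7.8, and chr4:122824425-122824943, with 14.3 and 17.5 against 4.7 and 3.5. At the last, the ATAC difference was near 0 in the other treatments, at 0.06, 0.24 and −0.29 in log2 units, while the other 4 kept values of 0.65 to 1.99.

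Most of what separated the sorts in fasted mice had the same direction under the other treatments. Each treatment has its own GFP-negative libraries, so these comparisons share none with Fast. Of the H3K27ac regions called higher in Fast, 88.1% were also higher in Fed, 85.5% in Lep2 and 88.6% in Lep24, where all tested regions above 0 in Fast gave 70.8%, 67.9% and 71.2%. Of the regions called lower, 88.8%, 89.5% and 91.4% were lower, against 66.8%, 67.0% and 67.7% of all tested regions below 0. All 3 treatments repeated the direction at 71.0% of the gains and 78.6% of the losses, where the shares over all tested regions were 43.1% on both sides. Of the regions kept in all 4 fits without 1 library, 91.6% repeated it, against 74.9% of all called, an alternative also chosen after seeing the data.

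These shares depended on the library set. From replicate 2 of each treatment alone, 78.8% of higher and 84.3% of lower regions had the Fast direction in all 3 treatments, against 44.7% and 45.3% of all tested regions above and below 0 in Fast. From the set-apart replicate 1 alone 37.9% and 46.5% had it (42.4% of all called regions), against 25.97% and 27.1%. In replicate 2, the median log2 difference at regions higher in Fast was 0.41 in Fed, 0.44 in Lep2 and 0.48 in Lep24, and at regions lower in Fast it was −0.53, −0.69 and −0.66. In replicate 1 the same medians were 0.23, 0.14 and 0.18, and −0.32, −0.17 and −0.29. All lay closer to 0 than the Fast medians of 0.66 and −0.87, but regions were chosen for their difference in Fast, which by itself makes the Fast values larger. Of the 16 named regions, 15 had the same sign in the 3 treatments, the exception being chr3:119926695-119928780 with −0.10 in Lep2, and at all 16 the Fast difference was the largest of the 4. From replicate 2 alone all 16 had the Fast sign, that region included (0.39 in Lep2), and the Fast difference was the largest at 11. At chrX:54438984-54440450, for example, it was 2.17 in Lep24 against 1.93 in Fast, and at chr1:112871204-112874638 it was −3.43 in Lep2 against −2.86.

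**Figure D5:**
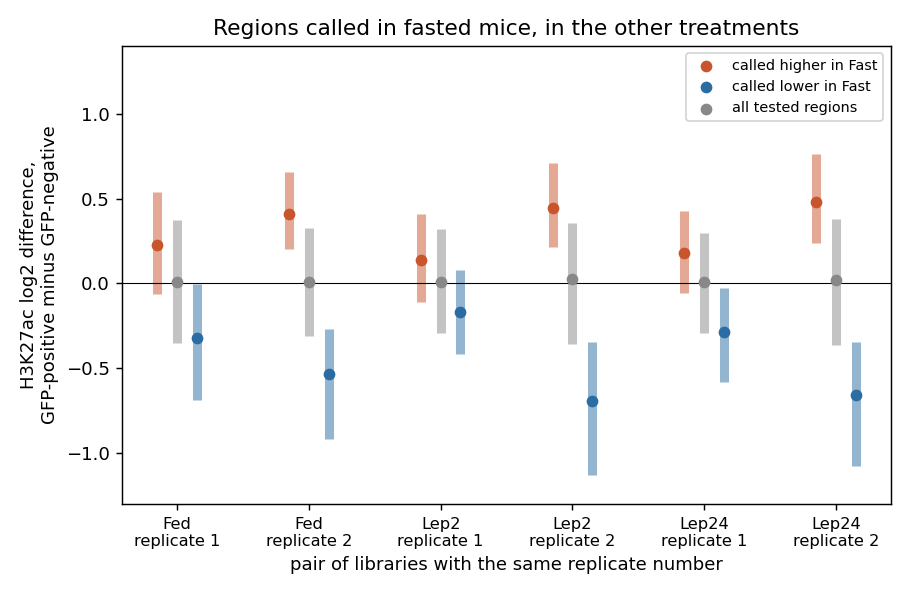
H3K27ac log2 difference between sorts in each same-numbered pair of libraries of Fed, Lep2 and Lep24, at regions called higher in Fast, regions called lower in Fast and all tested regions. Points are medians and bars quartiles. Medians at the regions higher in Fast are above 0 and those at the regions lower in Fast are below 0 in all 6 pairs, further out in replicate 2 than in replicate 1, and medians of all tested regions lie within 0.03 of 0.

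Whether the sort difference itself was particular to the fast was tested by contrasting it with the mean sort difference of Fed, Lep2 and Lep24, over all 16 libraries of each assay. By limma, 0 of 97552 H3K27ac regions and 0 of 31316 ATAC regions passed an adjusted p of 0.05 (0% of each). At an unadjusted p under 0.05 there were 2276 of the 97552 H3K27ac and 1118 of the 31316 ATAC regions. In each assay that is a smaller share of the regions tested than 0.05. The H3K27ac share was above 0.05 once the 6 set-apart libraries were left out. That fit has 1 library per sort in each other treatment. Without the 6 H3K27ac libraries the contrast again gave 0 calls, with 7154 regions at an unadjusted p under 0.05 and a smallest adjusted p of 0.316. The typical standard error of this contrast was 0.43 log2 units for H3K27ac and 0.40 for ATAC, so differences near that size were not detectable with these libraries. The strongest ATAC candidate was the region on chromosome 6 listed at 0 in fasted GFP-positive nuclei (contrast −3.12, SE 0.60, adjusted p = 0.447). Leaving out Fast GFP-positive ATAC replicate 1 gave 116 regions, leaving out replicate 2 gave 2, and leaving out either GFP-negative replicate gave 0.

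In H3K27ac, 3 of the 6 regions with the smallest p for this contrast are given here. At chr1:132400952-132402578 the Fast values were 34.9 and 40.3 against 11.4 and 9.7, whereas sort differences in Fed, Lep2 and Lep24 were −0.03, 0.49 and −0.19 log2 units (0.40, 0.75 and 0.23 from replicate 2 alone). At chr6:145711745-145716086 they were 25.4 and 25.9 against 69.6 and 80.9, with 0.03, −0.49 and −0.50 elsewhere (0.06, −0.47 and −0.75). At chr1:77441873-77443572 they were 12.4 and 15.5 against 41.8 and 42.6, with 0.09, −0.26 and 0.70 (−0.48, −0.78 and 0.53). The Fast groups were well apart at each of these, but they were picked as the smallest p-values of a contrast in which 0 regions passed (adjusted p = 0.99995 for all 3).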

How the data were processed

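H3K27ac ChIP-seq and ATAC-seq values came from 1 deposited table per assay. Per the file headers, the authors deposited a normalized signal per region and library; the sources used here do not give its normalization. Low values moved in unequal steps and whole reads were not recovered, depth is unknown and no count model was used. The authors' log2 fold changes and their p-values with FDR, per the file headers, are quoted only as theirs. Another 16 per-sample columns in each table were not used. Per the submitters' processing notes, the build is mm9 and the tools named include Bowtie2 2.2.6, Bowtie 1.2 and MACS2, with no step tied to either assay.

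Regions with a mean signal of at least 10 in the 4 Fast libraries were taken to log2(signal + 1), a scale that understates changes of weak regions, and modelled in limma (version 3.58.1, R 4.3.3), the prior variance following a signal trend. H3K27ac was fitted on the 4 Fast libraries, ATAC on 16 libraries with 8 group means, and the contrast with other treatments on 16 libraries in each assay. P-values are two-sided and adjusted by Benjamini-Hochberg over all regions tested. Overlaps needed 1 bp (GenomicRanges 1.54.1). Coordinates count from 1. Files were read with version 1.17.8 of data.table and plots drawn with matplotlib 3.10.9. The fits were tested on simulated data: H3K27ac recovered 14%, 56%, 88% and 100% of regions changed by 0.5, 1, 2 and 3 log2 units, and ATAC 0%, 12%, 72% and 96%. The simulated spread was drawn from each fit's own estimate, so these shares do not test that estimate. Only 50 regions were changed at each size, far fewer than were called in H3K27ac.

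Named regions are, among called regions with a mean signal of at least 20, the 8 higher and 8 lower with the largest fold, at least 5000 bp apart; for ATAC this left 2, both lower, so all 13 called regions were described after their values were seen. Joint places are 6 per direction, called ATAC regions first and then ATAC regions whose sorts do not overlap, each by summed ranks of both folds; windows are the 5 per direction with the largest surplus of calls, and candidates of the contrast are the 3 per direction and assay with the smallest p. The comparison, its regions and these rules were chosen with earlier results of these data known. Alternatives were other filters, pseudocounts of 0.1 and 5, quantile normalization and a median shift, a replicate block, a threshold of 0.01, no trend, other library sets and each Fast library left out. Marker genes were not used. RNA (23 samples) and input libraries (16 ChIP and 4 ATAC) were not analysed here.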

Additional observations from a re-analysis of the deposited data

Results flagged for a closer look

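In 8 regions, of those with the smallest p-values for a sort difference in Fast unlike that of other treatments, every GFP-positive library lay on one side of the GFP-negative libraries in Fast and on the opposite side in at least 1 other treatment. The contrast of Fast with the mean of the other treatments missed the threshold in all 8, with adjusted p of 0.99991 to 0.99995 by limma, and the reversals by single treatment were not tested.

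In H3K27ac, chr7:125169654-125170532 was higher in GFP-positive nuclei in Fast (log2 1.09, with 23.3 and 20.2 against 11.4 and 8.2) and lower in Fed (−1.18, with 13.3 and 13.2 against 28.3 and 34.8) and Lep24 (−0.501). At chr5:5270182-5271279 the difference was 1.14 in Fast, −0.857 in Fed and −0.339 in Lep24. At chr13:20325554-20327022 it was −1.47 in Fast and 0.28 in Fed. At chr1:77441873-77443572 it was −1.54 in Fast and 0.695 in Lep24, where the values were 26.3 and 23.2 against 14.0 and 15.8.

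In ATAC, chr7:148233464-148235523 was lower in GFP-positive nuclei in Fast (−0.536, with 29.1 and 21.9 against 35.5 and 38.7) and higher in each other treatment, by 0.579 in Fed, 0.959 in Lep2 and 0.816 in Lep24. The region chr1:133879268-133880101 was alike, with −1.12 in Fast and 0.814, 0.912 and 0.595 in Fed, Lep2 and Lep24. At chr8:26384936-26386626 the difference was 1.25 in Fast, −0.73 in Fed and −0.633 in Lep24, and at chr7:88137764-88139311 it was 0.891 in Fast and −0.298 in Lep2. The H3K27ac regions over these 4 sites did not follow: their Fast differences were 0.12, −0.03, −0.22 and −0.25, of which the last, at chr7:88134337-88143780, was called lower.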

How the results depend on the processing

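No named region reversed its fitted direction under any alternative run. These regions were chosen on the same libraries, and changes of filter, trend, threshold or shared spread leave the fold as it was. In both assays some named regions lost their call under alternatives. Quantile normalization gave 12550 higher and 12159 lower H3K27ac calls against 12381 and 13599, with 2 calls of opposite sign, and some fits without 1 library had such calls as well. For H3K27ac, calls moved from 25980 to 16933 at an adjusted p of 0.01, 7405 without the signal trend, 294 with 16 libraries sharing the spread and 13576 to 22395 with 1 Fast library left out; filters, pseudocounts, quantile normalization, median shift and 10 libraries gave 19823 to 26421. For ATAC, 13 calls became 2 at a mean signal of 30, 6 at a pseudocount of 0.1, 45 with quantile normalization, 21 with a median shift, 4 at 0.01, 1 without the trend, 0 with the Fast libraries alone and 1 to 324 with 1 Fast library left out. The contrast with other treatments gave 0 to 1 calls in H3K27ac and 0 to 116 in ATAC with 1 library left out. The labels do not say that replicate numbers pair the sorts, and deviations of same-numbered libraries correlated at 0.016 in H3K27ac and 0.12 in ATAC; with a replicate block the counts were 27180 and 44, and 0 and 1 for the contrast. The gap between ATAC medians on higher and lower H3K27ac, 0.28, was 0.24 at a pseudocount of 5, 0.20 to 0.39 with 1 ATAC library left out and 0.36 on H3K27ac calls kept in all 4 fits. The share of calls with the Fast direction in all other treatments, 74.9%, was 42.4% from replicate 1 alone and 81.6% from replicate 2. The causes were not tested. Depth is unknown, and low ATAC values move in coarse steps.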

Other observations

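H3K27ac on the X chromosome leaned towards GFP-positive nuclei, a pattern noticed after the values were seen and given without a test. In Fast, 19.6% of 1487 tested X regions were called higher and 7.40% lower, whereas single autosomes ranged from 10.0 to 15.6% higher and from 11.3 to 16.9% lower. The median log2 difference over X regions was 0.16 against 0.03 over autosomal regions, and 0.20 and 0.11 in replicates 1 and 2. It was 0.18 in Fed, 0.27 in Lep2 and 0.27 in Lep24, and above 0 in each of the 8 same-numbered pairs of libraries. ATAC did not share the lean: over 549 X regions the median was −0.08 in Fast, 0.01 in Fed, −0.13 in Lep2 and −0.09 in Lep24. No sex is given in the labels used here, and the cause of the lean was not tested.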
